A study of Mus musculus with 12 samples.

Results

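Triglyceride is built in the liver by a short series of enzymes, and 9 of their genes are described here: Mogat1, Mogat2, Dgat1, Dgat2, Gpam, Agpat2, Agpat3, Lpin1 and Lpin2. They were taken by gene symbol from the 46882 gene names of the deposited count table, as the monoacylglycerol route (Mogat1, Mogat2) beside the glycerol phosphate route and the final acylation step. They were chosen by role, with their measured log2 fold changes between A1cf -/- and wild-type livers in view, that of Mogat2 first. For these 9 genes that comparison is therefore a description. The side of the adjusted p threshold on which a gene lay in the fit over all genes is stated to place it among them, and it is no independent test and supports nothing. The samples were livers of A1cf -/- mice (KO, n = 6) and of wild-type mice (WT, n = 6), all of the C57BL/6 strain and 6 to 8 weeks old. The organs were flash frozen and whole-liver RNA was sequenced, so all cell types of the organ contributed. The series' design text calls the 6 libraries of a genotype biological replicates. No source used here states a sex, a diet, a time of day, a feeding state or how the A1cf allele was made. A1cf encodes the APOBEC1 complementation factor, which binds RNA in hepatocytes and enterocytes.

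In the glycerol phosphate route, glycerol 3-phosphate is acylated to lysophosphatidic acid and then to phosphatidic acid. A lipin removes the phosphate to give diacylglycerol, and a diacylglycerol acyltransferase adds the last fatty acid. The monoacylglycerol route enters lower down, where MGAT1 or MGAT2 acylates monoacylglycerol directly to diacylglycerol. It is best known from the small intestine, where MGAT2 serves the rebuilding of dietary fat. In mouse liver, Mogat1 is known to be raised in fatty liver.

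MGAT1, MGAT2 and DGAT2 belong to the same enzyme family, while DGAT1 is unrelated to it in sequence. Because Mogat2 lies beside Dgat2 on chromosome 7, with both genes on the minus strand, and because the counts were assigned to these related genes by sequence, 60 coding bases around their shared active-site motif are shown. Each window lies within 1 coding exon, runs 5′ to 3′ on the coding strand, and has the 4 codons of the motif in capitals. The bases were read from the GENCODE transcripts of the GRCm38 reference, at chr1:78523601-78523660 (plus strand) for Mogat1, chr7:99223619-99223678 (minus strand) for Mogat2 and chr7:99158951-99159010 (minus strand) for Dgat2.
Mogat1: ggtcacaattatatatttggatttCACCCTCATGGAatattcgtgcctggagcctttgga
Mogat2: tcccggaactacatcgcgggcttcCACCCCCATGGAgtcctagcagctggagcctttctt
Dgat2: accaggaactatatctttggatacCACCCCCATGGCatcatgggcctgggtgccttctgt
Mogat1 and Mogat2 shared 36 of these 60 bases, Mogat1 and Dgat2 shared 37, and Mogat2 and Dgat2 shared 39. Over the whole coding sequence, 62.9% of the aligned bases were identical between Mogat2 and Dgat2, and the longest identical run was 14 bases. Between Mogat1 and Mogat2 59.0% of the aligned bases were identical, with a longest run of 11. No stretch of 50 bases was held in common between any pair of the 9 genes. Against the transcripts of all other genes, 6 of the 1786 stretches of 50 bases in Mogat2 recurred, in the gene model Gm45012. For Mogat1 the number was 154 of 1547, all in BC035947, which overlaps 12.8% of its exonic bases. Mogat1 counts are therefore less certain than the others.

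A1cf was low in every library labelled KO. Levels are given as CPM, the counts of a gene as a share of the library's TMM-scaled total, put on a common scale. A1cf had 8.20 to 12.6 CPM in KO and 47.9 to 53.8 CPM in WT. Of the 13706 genes abundant enough to be tested, 236 were higher and 287 lower in KO (edgeR quasi-likelihood test, Benjamini-Hochberg adjusted p under 0.05), which together is 3.82%. Library totals were 22129092 to 51082317 counts in KO and 25898171 to 40597491 counts in WT. Library numbers fell into a range of 573 to 602 (5 KO, 3 WT) and a range of 776 to 780 (1 KO, 3 WT). The labels do not say what the numbers stand for.

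All 9 genes were abundant enough to be tested. Mogat2 was higher in KO, at 10.4 times the WT level, and Agpat2 was lower by 0.28 on the log2 scale. Both passed the threshold over all genes, while Mogat1, Dgat1, Dgat2, Gpam, Agpat3, Lpin1 and Lpin2 did not. That is 1 of 9 genes past the threshold as higher, where 1.72% of all tested genes were, and 1 of 9 as lower, where 2.09% were. The KO and WT libraries of Mogat2 and Agpat2 did not overlap, as was so for 3.3% of all tested genes (1.33% with KO above WT, 1.97% with KO below). The median log2 fold change of the 9 genes was -0.12, against 0.01 over all tested genes. The genes were chosen with these values known, so the shares are printed beside the background and nothing is read from them.

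**Figure D1:**
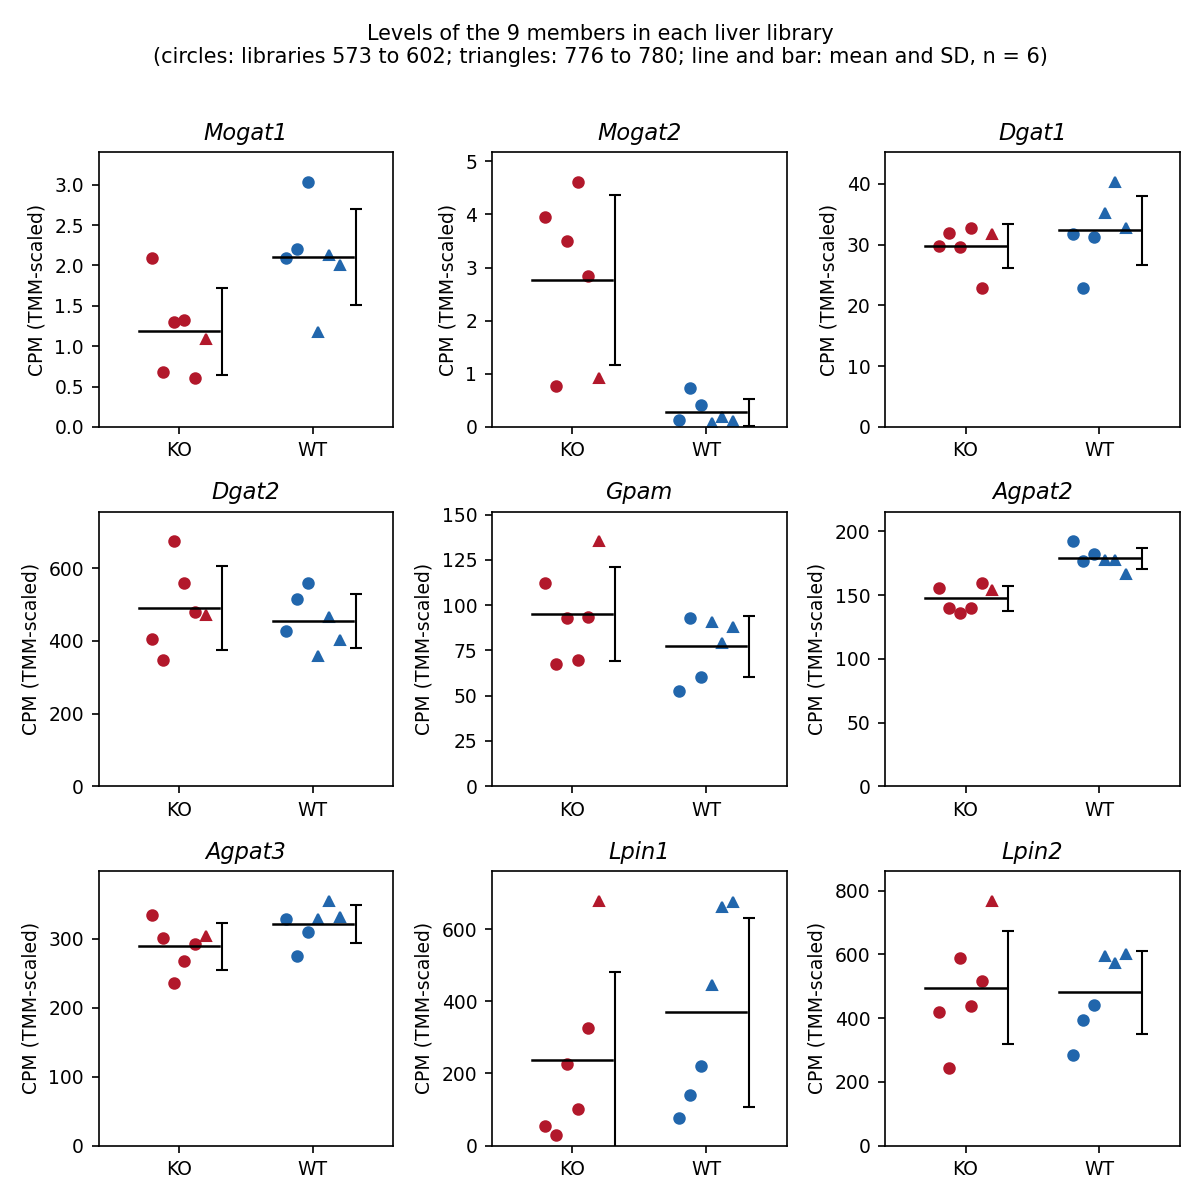
Level of each of the 9 genes in every liver library, in TMM-scaled CPM on linear axes that start at 0, with KO in red at the left and WT in blue at the right of each panel. Circles are libraries 573 to 602, triangles 776 to 780, and lines with bars are the mean and SD of 6 libraries (cut at 0 where the bar would pass below it). The KO and WT points do not overlap for Mogat2 and Agpat2, and overlap in the other panels. For Mogat2, KO 584 (0.770 CPM) and WT 590 (0.733 CPM) lie at nearly the same height.

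Mogat2, the acyltransferase known for its part in intestinal fat absorption, was scarce in both genotypes. The KO livers 574, 584, 588, 591, 602 and 780 had 3.96, 0.770, 3.50, 4.62, 2.84 and 0.925 CPM. The WT livers 573, 590, 601, 776, 777 and 778 had 0.121, 0.733, 0.410, 0.0736, 0.183 and 0.107 CPM. In KO, libraries 584 and 780 lay far below the other 4, and KO 584 exceeded the highest WT library, WT 590, only narrowly.

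Behind these levels stood few reads. The KO libraries held 112, 18, 178, 119, 65 and 22 Mogat2 counts, and the WT libraries held 5, 20, 10, 2, 5 and 3. In all, 514 counts came from KO and 45 from WT. WT 590 alone gave 20 of those 45, and WT 776 and WT 778 lay at or under 3 counts, the most that a count of 0 would allow. The mean was 2.77 ± 1.598 CPM in KO and 0.271 ± 0.256 CPM in WT (SD, n = 6 each), and the log2 fold change was 3.38 (standard error 0.58). It lay between 3.18 and 3.99 when each library was left out in turn, the highest value coming without WT 590.

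Within the 573 to 602 range, the mean log2 CPM of Mogat2 was 2.73 higher in the 5 KO than in the 3 WT libraries. Within the 776 to 780 range it was 2.43 higher in the 1 KO library than in the 3 WT libraries. With the number range as a covariate the log2 fold change was 2.95 (standard error 0.50), and with libraries 573 to 602 alone it was 2.98, short of the threshold.

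Mogat1, the other monoacylglycerol acyltransferase, stood the other way. The KO livers had 2.09, 0.685, 1.30, 1.32, 0.611 and 1.09 CPM in the same library order, and the WT livers had 2.09, 2.20, 3.04, 1.18, 2.13 and 2.003 CPM. Of the KO libraries only KO 574 reached the level at which 5 of the 6 WT libraries lay, and WT 776 lay among the KO libraries. The log2 fold change was -0.81 (standard error 0.28) and did not pass the threshold. It rested on 215 counts in KO and 366 in WT. The difference in mean log2 CPM, KO minus WT, was -1.10 within the 573 to 602 range and -0.62 within the 776 to 780 range. Mogat1 lies on another chromosome than Mogat2, at chr1:78510991-78538173 on the plus strand (mm10, as are the other gene positions).

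Levels of different genes were compared per kilobase of exonic length. On the scale of CPM per kilobase, Mogat2 was above Mogat1 in 4 of the 6 KO libraries and in 0 of the 6 WT libraries. Mogat2 made up 41.8% to 79.8% of the summed level of both genes in KO, with a mean of 62.8% ± 14.9, and 4.35% to 22.1% in WT, with a mean of 8.88% ± 6.82 (SD, n = 6 each). These shares did not overlap. They reuse the Mogat2 values that were known when the genes were chosen, so they are a description and nothing further is read from them. The summed level did overlap, with 0.859 to 3.50 CPM per kilobase in KO and 0.796 to 2.17 in WT. The means were 2.27 ± 1.11 in KO and 1.499 ± 0.465 in WT.

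**Figure D2:**
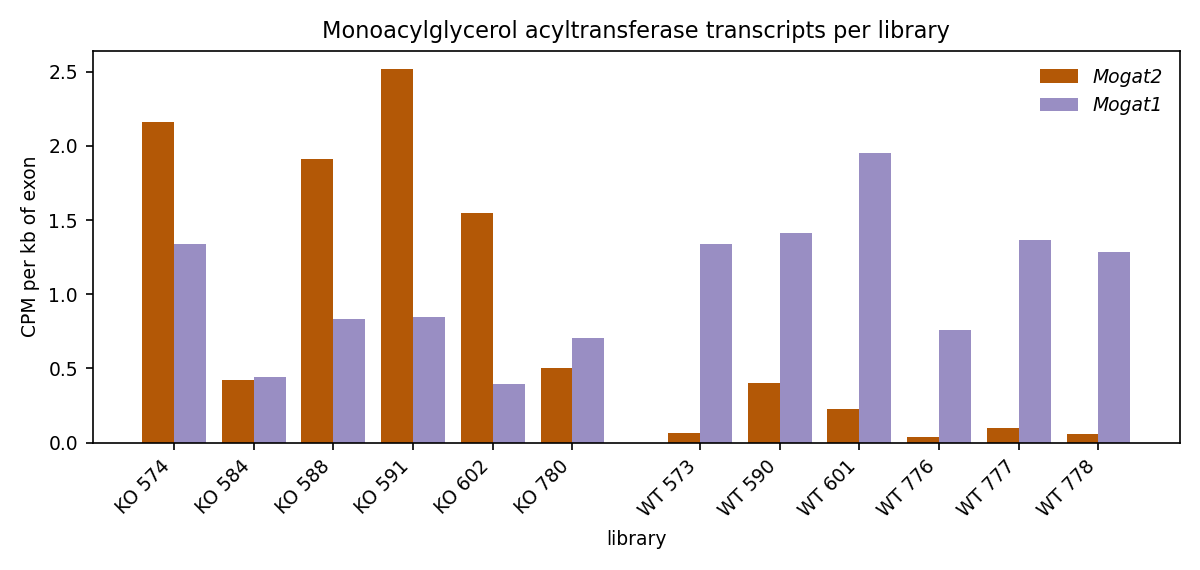
Level of Mogat2 (brown bars) and Mogat1 (violet bars) in each library, in CPM per kilobase of exonic length on a linear axis from 0, with the KO libraries at the left and the WT libraries at the right. In the 4 KO libraries where Mogat2 was above Mogat1 it made up 61.7% to 79.8% of their summed level per kilobase, while its share was at most 22.1% in WT.

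Both genes remained minor beside Dgat2, the acyltransferase for the last step that dominates by level. In KO livers Mogat2 was 0.676% of the level of Mogat2 and Dgat2 together (per kilobase), against 0.0675% in WT livers. Of the summed per-kilobase level of all 9 genes, Mogat2 held 0.345% ± 0.205 in KO and 0.0324% ± 0.0318 in WT.

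The neighbours of Mogat2 on chromosome 7 that were abundant enough to be tested did not pass the threshold. Mogat2 is annotated at chr7:99219084-99238619 and Dgat2 at chr7:99153663-99182713 (mm10). Dgat2 is the nearest gene with counts on one side, followed by Uvrag, an autophagy gene, with 24.5 ± 3.28 CPM in KO and 25.8 ± 3.92 CPM in WT (log2 fold change -0.07, adjusted p = 0.76, edgeR quasi-likelihood test). On the other side lie Map6, too low to be tested with a mean of at most 0.0061 CPM in either genotype, and Serpinh1, a collagen chaperone. Serpinh1 had 7.18 ± 1.72 CPM in KO and 5.69 ± 1.62 CPM in WT (log2 fold change 0.34, adjusted p = 0.38, edgeR quasi-likelihood test).

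The cell type lists bear on a gene known from the gut. The enterocyte markers Cdx1, Alpi and Sis had 0 counts in all 12 libraries, and Cdx2, Lct, Krt20 and Cdh17 had at most 2. Of the 12 enterocyte markers 3 were abundant enough to be tested, and all 3 had log2 fold changes below 0. Of those too low to be tested, Vil1 averaged 0.399 CPM in KO and 0.335 CPM in WT, with 20, 2, 27, 11, 9 and 6 counts in the KO libraries and 12, 21, 9, 7, 3 and 6 in the WT libraries, in the order given for Mogat2. Vil1, like Mogat2, was lowest among KO libraries in KO 584 and highest among WT libraries in WT 590. Slc5a1 did not share this, being lowest among KO libraries in KO 780 and highest among WT libraries in WT 573. Muc2, a goblet cell mucin, averaged 0.164 CPM in KO and 0.0720 CPM in WT, with at most 7 counts in a library. Muc2 had 3 counts in KO 584 and 1 in WT 590. The likeness of these markers to Mogat2 was not tested. The summed level of the list was 292 to 1509 CPM in KO and 230 to 1530 CPM in WT, which comes mostly from Apoa4 and Fabp2, genes that hepatocytes also express. Of the adipocyte markers, Lep had 0 counts, Plin1 at most 1 and Adipoq at most 5 in any library. Retn had 4, 0, 6, 3, 0 and 0 counts in KO and 1 count in all in WT, and Cfd, which hepatocytes of fatty liver also express, had 14.7 ± 12.4 CPM in KO and 2.81 ± 3.65 CPM in WT. That list summed to 43.4 to 133 CPM in KO and 17.8 to 107 CPM in WT.

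Markers of the other liver cells mostly stood higher in KO. All 8 Kupffer cell and macrophage markers had log2 fold changes above 0 (median 0.69, none past the threshold), with a summed level of 99.5 to 345 CPM in KO and 93.6 to 158 CPM in WT. All 8 stellate cell and fibroblast markers were above 0 (median 0.49), and Pdgfrb and Lrat passed the threshold. Their sum was 225 to 313 CPM in KO and 137 to 252 CPM in WT. All 7 sinusoidal endothelial markers were above 0, with Stab2 past the threshold and sums of 172 to 228 CPM in KO and 118 to 220 CPM in WT. All 8 hepatocyte markers were below 0 (median -0.12, none past the threshold), with sums of 85202 to 107385 CPM in KO and 95413 to 114486 CPM in WT. The 3 tested neutrophil and monocyte markers were above 0, with sums of 3.50 to 21.1 CPM in KO and 2.14 to 6.63 CPM in WT, and so were the 2 tested T, NK and B cell markers (1.72 to 3.42 CPM in KO and 0.953 to 3.68 CPM in WT). Of 5 tested cholangiocyte markers 1 was above 0 (28.5 to 515 CPM in KO and 34.5 to 121 CPM in WT), and of 6 pancreatic acinar markers 5 had 0 counts throughout and Ctrb1 at most 2. For comparison, 1.72% of all tested genes passed as higher in KO, and the median log2 fold change over all of them was 0.01. The share of all tested genes above 0 was not counted, and nothing is read from the marker counts. The part of these cell types in the levels of the 9 genes was not tested. In whole-liver RNA, fewer cells of a type and less RNA per cell cannot be told apart.

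The 5 genes whose deviations from the genotype means were most like those of Mogat2 over the 12 libraries were Cdk6 (Pearson r = 0.97), Klhl26 (0.95), Dennd2d (0.94), Abhd12 (0.94) and Lrrk1 (0.92). These are the highest of all tested genes with a mean of at least 1 CPM, in log2 CPM. They describe 12 libraries that share scaling and depth, the number range was not removed from the deviations, and no test was made.

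Dgat2, the diacylglycerol acyltransferase known to carry most triglyceride synthesis in mouse liver, was the most abundant of the 9 genes. KO livers had 348 to 674 CPM with a median of 475, and WT livers had 358 to 559 CPM with a median of 447. The ranges overlapped almost fully, KO 588 being the highest library. The log2 fold change was 0.10 (standard error 0.16), and it was -0.01 without KO 588. Dgat1 (chr15:76502015-76511951, minus strand), which uses the same substrates but comes from another family, had 22.9 to 32.7 CPM in KO and 22.9 to 40.3 CPM in WT. Its log2 fold change was -0.12 (standard error 0.12). Dgat1 made up 4.48% ± 1.18 of the per-kilobase level of both Dgat genes in KO and 5.12% ± 1.33 in WT, with overlap.

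Gpam encodes the mitochondrial acyltransferase that takes the first step of the glycerol phosphate route (chr19:55069734-55099451, minus strand). It had 67.5 to 135 CPM in KO and 52.3 to 92.7 CPM in WT, with means of 95.1 ± 25.9 CPM in KO and 77.2 ± 16.96 CPM in WT (SD, n = 6 each). KO 574 and KO 780 lay above the highest WT library, WT 590, KO 588 and KO 602 lay about level with it, and KO 584 and KO 591 lay within the WT range. The log2 fold change was 0.30 (standard error 0.19). The difference in mean log2 CPM, KO minus WT, was 0.36 within the 573 to 602 range and 0.66 within the 776 to 780 range, and with the range as a covariate the log2 fold change was 0.44. Gpam lies on the same chromosome as A1cf (chr19:31868761-31949406).

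Agpat2 acylates lysophosphatidic acid to phosphatidic acid, and its loss causes lipodystrophy in humans and mice. The gene lies at chr2:26593057-26604417 on the minus strand. KO livers had 156, 140, 136, 140, 159.8 and 154 CPM, and WT livers had 192, 177, 182, 177, 177 and 167 CPM, in the library orders given for Mogat2. Every KO library lay below every WT library, though KO 602 and WT 778 came close. The mean was 148 ± 9.93 CPM in KO and 179 ± 8.42 CPM in WT (SD, n = 6 each), a log2 fold change of -0.28 (standard error 0.07). The gene varied least of the 9 within a genotype, with an SD of 0.08 in log2 CPM.

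The side of the threshold on which Agpat2 lay changed with the libraries used. Leaving out each library in turn gave log2 fold changes of -0.30 to -0.25, and it lay past the threshold in 2 of the 12 fits (those without KO 602 or WT 590). The difference in mean log2 CPM, KO minus WT, was -0.33 within the 573 to 602 range and -0.17 within the 776 to 780 range. Agpat2 shares 3.0% of its exonic bases with Egfl7 on an annotated overlap, without regard to strand.

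Agpat3 (chr10:78269178-78352489, minus strand), another acyltransferase for lysophosphatidic acid, had 235 to 334 CPM in KO and 275 to 355 CPM in WT. Its log2 fold change was -0.15 (standard error 0.10), and the groups overlapped. Agpat2 made up 64.6% ± 1.97 of the per-kilobase level of Agpat2 and Agpat3 in KO and 66.5% ± 2.20 in WT, so the balance between them overlapped between genotypes.

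**Figure D3:**
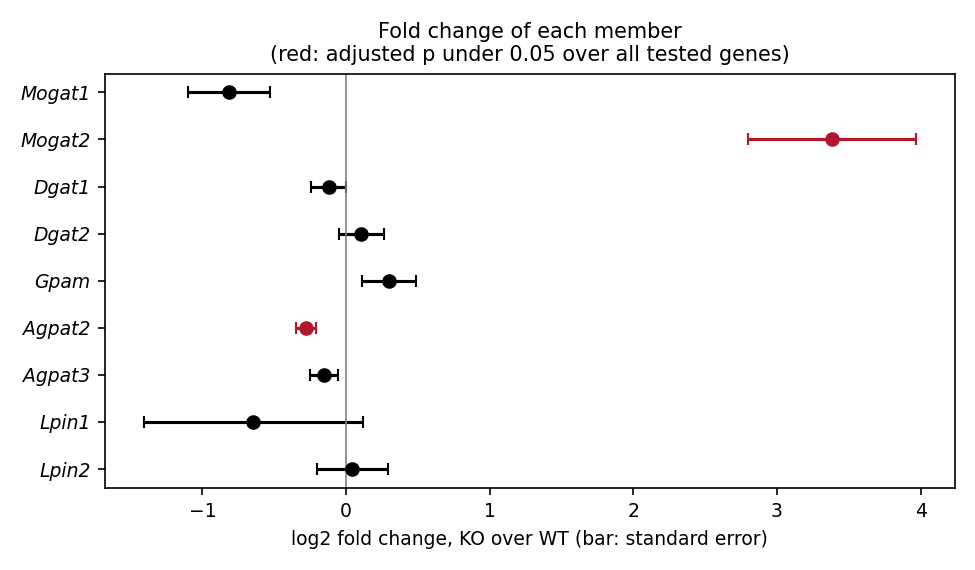
Log2 fold change of each gene, KO over WT, with bars for the standard error; red marks an adjusted p under 0.05 over all tested genes, as a description. Mogat2 lies at 3.38, Agpat2 at -0.28, and the standard error of Lpin1 is the widest at 0.76.

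The lipins dephosphorylate phosphatidic acid to diacylglycerol. Lipin 1 also acts as a transcriptional coactivator, and its mRNA is known to respond to fasting and glucocorticoids, while lipin 2 is the form known for its abundance in liver. Lpin1 is annotated in the deposited table at chr12:16535669-16589770 (minus strand) and Lpin2 at chr17:71182560-71249817 (plus strand). Lpin1 was the most variable of the 9 genes, with a within-genotype SD of 1.48 in log2 CPM. KO livers 574, 584, 588, 591, 602 and 780 had 55.6, 30.8, 226, 101, 325 and 679 CPM. WT livers 573, 590, 601, 776, 777 and 778 had 77.3, 139.7, 222, 445, 660.1 and 676 CPM. Both genotypes spanned nearly the whole range, and the log2 fold change of -0.65 had a standard error of 0.76.

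The Lpin1 libraries separated by number range and not by genotype. Libraries 776 to 780 (1 KO, 3 WT) had 445 to 679 CPM and libraries 573 to 602 (5 KO, 3 WT) had 30.8 to 325 CPM, without overlap. How many of all tested genes were likewise without overlap between the ranges was not counted. The choice of genes did not use the contrast of number ranges, so that contrast was tested, in a model with genotype and number range over all genes. Lpin1 stood in the 776 to 780 range at 4.25 times its level in the 573 to 602 range (log2 fold change 2.09, standard error 0.57), with an unadjusted p of 0.0044 and an adjusted p of 0.069 (edgeR quasi-likelihood test). It did not pass the threshold. With the number range in the model the KO over WT log2 fold change of Lpin1 was 0.07.

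Lpin2 followed the same pattern at a smaller size. KO livers had 245 to 769 CPM and WT livers had 284 to 601 CPM, and the log2 fold change of KO over WT was 0.04 (standard error 0.25). In libraries 776 to 780 the level was 571 to 769 CPM, against 245 to 589 CPM in libraries 573 to 602, where KO 588 reached into the upper group. The number range gave a log2 fold change of 0.71 (standard error 0.19) and an adjusted p of 0.057 (edgeR quasi-likelihood test). Scaled by library totals only, that value was 0.76 with an adjusted p of 0.029, past the threshold. Over all 9 genes, 0 passed in this contrast with TMM scaling, where 4.36% of all tested genes did (2.14% higher and 2.23% lower in the 776 to 780 range). After the lipins, the smallest adjusted p among the 9 were those of Mogat2 at -1.73 (adjusted p = 0.118) and Gpam at 0.44 (adjusted p = 0.156). These are log2 fold changes of 776 to 780 over 573 to 602, with the edgeR quasi-likelihood test. What else differed between the number ranges is not given in the labels, and its part in the lipin levels was not tested.

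**Figure D4:**
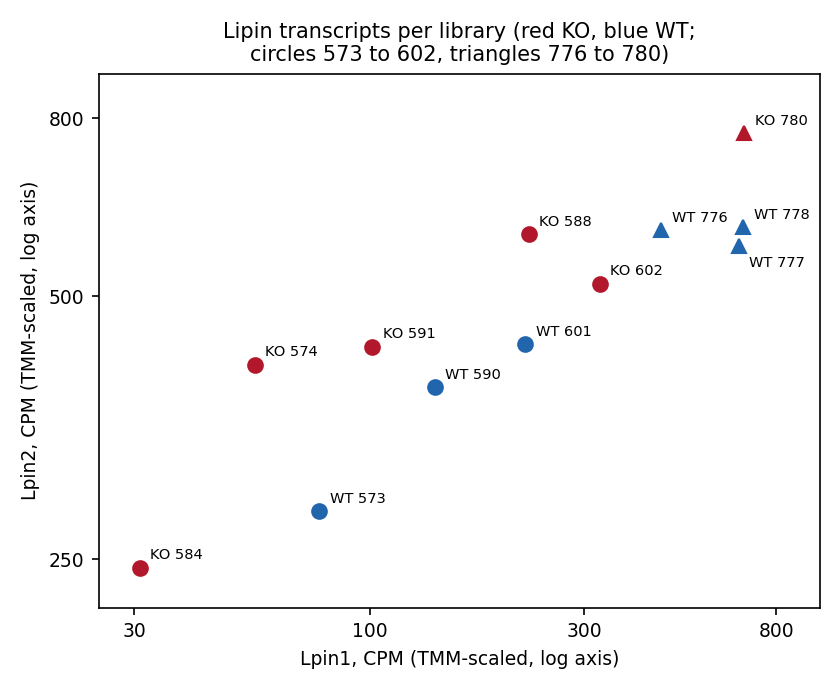
Lpin2 against Lpin1 in each library, in TMM-scaled CPM on log axes, with KO in red, WT in blue, circles for libraries 573 to 602 and triangles for 776 to 780. The 4 triangles lie at 444.5 CPM or more of Lpin1, the 8 circles at 325 CPM or less, and both genotypes occur at each end.

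Lpin2 was also among the 5 genes most like Lpin1 in their deviations from the genotype means over 12 libraries, with r = 0.95. The others were Cd33, Zbtb16, Cobll1 and Adamtsl4, each also at 0.95. The number range was not removed from these deviations, so they also hold the difference between the ranges. Lpin1 made up 61.5% to 71.2% of the per-kilobase level of the lipin pair in libraries 776 to 780 and 21.2% to 57.3% in libraries 573 to 602. These shares depend on the exonic lengths in the deposited table, 5725 bases for Lpin1 and 12233 for Lpin2. In CPM the mean of Lpin2 was above that of Lpin1, at 481 against 370 in WT and 496 against 236 in KO. As Lpin1 and Lpin2 varied together, their promoters are shown, as the 300 bases that RefSeq (GRCm38.p6) places around a start site. The Lpin1 entry lies at chr12:16610917-16611216 (minus strand), upstream of the locus in the deposited table, and the first of several Lpin2 entries at chr17:71183282-71183581 (plus strand). Capitals mark an E-box, CACGTG.
Lpin1: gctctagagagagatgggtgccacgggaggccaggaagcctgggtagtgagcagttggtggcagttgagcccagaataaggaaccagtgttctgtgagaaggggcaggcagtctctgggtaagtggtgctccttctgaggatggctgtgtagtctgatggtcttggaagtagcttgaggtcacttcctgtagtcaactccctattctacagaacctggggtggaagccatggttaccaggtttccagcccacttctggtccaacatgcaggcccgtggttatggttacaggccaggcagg
Lpin2: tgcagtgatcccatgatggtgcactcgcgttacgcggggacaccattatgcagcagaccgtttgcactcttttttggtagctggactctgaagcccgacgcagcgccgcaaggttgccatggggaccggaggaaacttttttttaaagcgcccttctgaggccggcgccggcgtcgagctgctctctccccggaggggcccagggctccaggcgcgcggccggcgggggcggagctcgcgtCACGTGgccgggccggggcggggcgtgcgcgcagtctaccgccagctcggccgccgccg
Promoter entries were matched for 6 of the 9 genes (Mogat1, Gpam, Agpat2, Agpat3, Lpin1, Lpin2), 9 entries in all. Both strands were searched for the E-box CACGTG and the cAMP response element TGACGTCA. The E-box in the Lpin2 promoter was the only match among the 9 entries, and 7.15% of all 32851 promoters in the table hold one. The cAMP response element is held by 1.79% of them and by none of the 9 entries. A match is a description of the letters in this window and not a site.

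The order of the genes within WT livers was not used to choose them. It depends on the exonic length that the deposited table gives each gene. Per kilobase it ran from Dgat2 (202 ± 33.0 CPM per kilobase, SD, n = 6) through Agpat2 (84.0 ± 3.96), Lpin1 (64.6 ± 45.8), Agpat3 (42.4 ± 3.56), Lpin2 (39.3 ± 10.6), Gpam (20.1 ± 4.43) and Dgat1 (10.6 ± 1.87) to Mogat1 (1.35 ± 0.380) and Mogat2 (0.148 ± 0.140). The 2 routes into diacylglycerol thus stood far apart by level, with Mogat1 and Mogat2 below each of the other 7 genes. Of the 8 pairs of neighbours in this order, 5 lay the same way in all 6 WT libraries: Dgat2 over Agpat2, Lpin2 over Gpam, Gpam over Dgat1, Dgat1 over Mogat1 and Mogat1 over Mogat2. Each of these had p = 0.03125 in a two-sided exact sign-flip permutation test within libraries, the smallest that 6 libraries allow. After adjustment over the 8 pairs it was 0.05, which is not below the threshold. The order was taken from the same 6 libraries, so this p only restates that all 6 lay one way. Agpat2 and Lpin1, Lpin1 and Agpat3, and Agpat3 and Lpin2 did not differ beyond their spread over libraries, with adjusted p of 0.292, 0.719 and 0.393 in the same exact permutation test. In KO livers the order was the same save for Lpin2 (40.5) before Agpat3 (38.1) and Mogat2 (1.51) before Mogat1 (0.759), in CPM per kilobase.

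The wider pathway was read through 7 lists with 96 genes in the table, of which 90 were abundant enough to be tested. Of these, 0 were higher and 4 were lower in KO past the threshold, 4.44%, where 3.82% of all tested genes passed in either direction. The median log2 fold change was -0.05, with 40 genes above 0 and 50 below, and 17 of the 90 had an unadjusted p under 0.05, as had 2903 of all 13706 tested genes. DESeq2 passed 11 of the 90, and 1172 genes in all. The KO and WT libraries did not overlap for 4 genes, each lower in KO: Ept1, Cdipt, Rxra and Lclat1. No gene had every KO library above every WT library, so that is 4 of 90 in either direction. Of all tested genes, 3.3% were without overlap in either direction, and 1.97% had every KO library below every WT library.

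Among the other genes of the glycerol phosphate route, 1 of 17 passed as lower in KO and none as higher. Of all tested genes, 2.09% passed as lower and 1.72% as higher. The 1 gene was Gk, glycerol kinase, which makes glycerol 3-phosphate. Gk had 98.7 ± 13.4 CPM in KO and 148 ± 38.0 CPM in WT (log2 fold change -0.58, standard error 0.15, adjusted p = 0.049 by edgeR's quasi-likelihood test). The genotypes overlapped, and leaving out each library in turn kept the call in 3 of 12 fits, with adjusted p from 0.0288 to 0.101. With the number range as a covariate the log2 fold change was -0.43 (adjusted p = 0.080) and with only libraries 573 to 602 it was -0.31 (adjusted p = 0.36), so that neither passed.

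In the phospholipid branch, which draws on phosphatidic acid and diacylglycerol, 2 of 20 tested genes passed as lower in KO and none as higher. The shares over all tested genes were 2.09% lower and 1.72% higher. Ept1, ethanolamine phosphotransferase, makes phosphatidylethanolamine from diacylglycerol. It had 30.2 ± 3.53 CPM in KO and 41.1 ± 3.20 CPM in WT, without overlap (log2 fold change -0.44, standard error 0.08, adjusted p = 0.011, edgeR quasi-likelihood test), and the call held in 12 of 12 fits that left out a library. It was lost with only libraries 573 to 602 (-0.38, adjusted p = 0.197) and without the deepest library of each genotype (-0.38, adjusted p = 0.0641). Cdipt, which makes phosphatidylinositol, had 34.8 ± 1.85 CPM in KO and 42.8 ± 3.73 CPM in WT (log2 fold change -0.30, standard error 0.07, adjusted p = 0.033, edgeR quasi-likelihood test). Its call held in 3 of those 12 fits, with adjusted p from 0.0131 to 0.0839. It was also lost with the number range as a covariate (-0.26, adjusted p = 0.0519) and with only libraries 573 to 602 (-0.20, adjusted p = 0.371).

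Of 16 regulators, 1 passed as lower in KO and none as higher, where 2.09% and 1.72% of all tested genes did. Rxra, the partner of PPARs and LXRs on DNA, had 429 ± 14.7 CPM in KO and 531.5 ± 41.5 CPM in WT, without overlap (log2 fold change -0.31, standard error 0.08, adjusted p = 0.046, edgeR quasi-likelihood test). The call held in 1 of 12 fits that left out a library, with adjusted p from 0.0465 to 0.0995. It held with the number range as a covariate (-0.34, adjusted p = 0.0267) and was lost with only libraries 573 to 602 (-0.38, adjusted p = 0.157).

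No gene passed in the remaining lists (KO over WT, edgeR quasi-likelihood test with Benjamini-Hochberg adjustment). In fatty acid uptake and acyl-CoA supply, 4 of 12 tested genes were above 0 and 8 below (median log2 fold change -0.11). The nearest to the threshold were Slc27a4, a fatty acid transport protein, at -0.32 (adjusted p = 0.055) and Slc27a1, another, at 0.99 (adjusted p = 0.083). Of the enzymes that make or use monoacylglycerol, the substrate of MGAT1 and MGAT2, 7 of 13 were above 0 and 6 below (median 0.05). Abhd5, the coactivator of adipose triglyceride lipase, was at 0.27 (adjusted p = 0.068) and Dagla, which makes 2-arachidonoylglycerol, at 0.54 (adjusted p = 0.10). Among the DGAT2 family and other neutral lipid acyltransferases, 4 of 6 were tested, Soat1 (cholesterol esterification) stood at 0.64 (adjusted p = 0.075) and Lcat at -0.22 (adjusted p = 0.34), and Awat1 had 0 counts in all libraries.

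Of 9 fatty liver genes known to follow PPARG, 8 were tested, with 5 above 0 and 3 below (median 0.23). Cfd, adipsin, had 14.7 ± 12.4 CPM in KO and 2.81 ± 3.65 CPM in WT, with a log2 fold change of 2.36, a standard error of 0.98 and an adjusted p of 0.19. Cidea, a lipid droplet protein, had 3.47 ± 3.55 CPM in KO and 0.785 ± 0.984 CPM in WT (log2 fold change 2.10, standard error 1.07, adjusted p = 0.285). Without WT 573 the log2 fold change was 3.32 for Cfd and 2.92 for Cidea, and with only libraries 573 to 602 it was 1.56 for Cfd and 1.54 for Cidea. With the number range as a covariate it was 1.40 for Cidea. Neither gene passed in any of these fits. The p-values are from edgeR's quasi-likelihood test, and the SDs show how widely single livers differed.

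**Figure D5:**
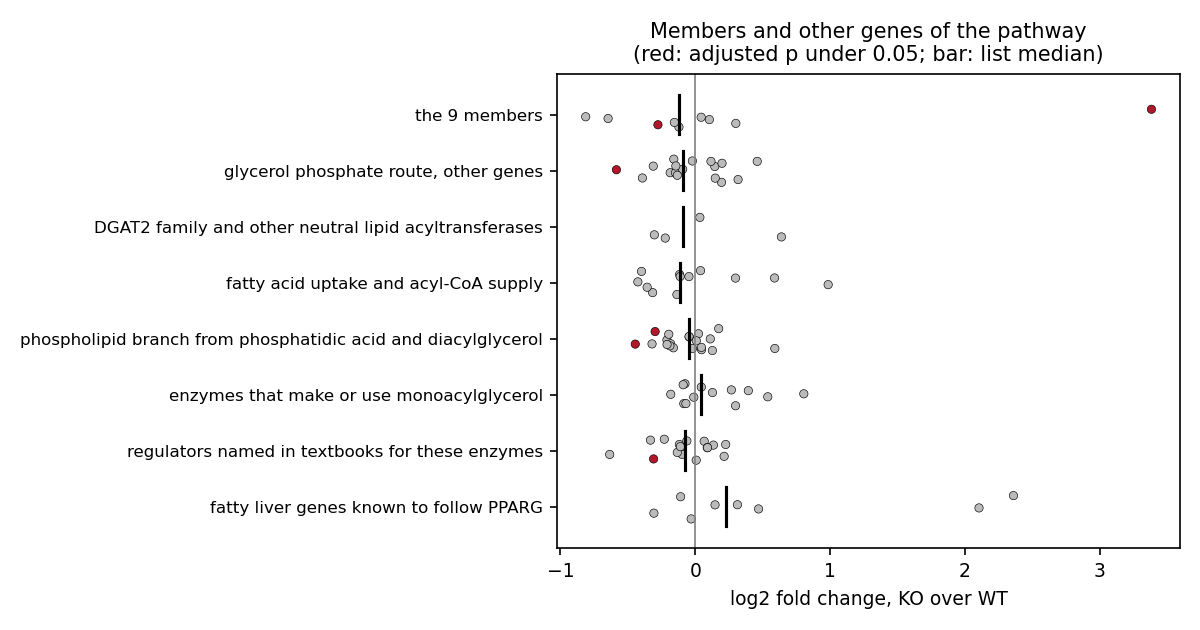
Log2 fold change, KO over WT, of the 9 genes (top row) and of the tested genes in the 7 pathway lists, with 1 point per gene, a bar at each list's median and red for an adjusted p under 0.05. In the 7 lists, the 4 genes past the adjusted p threshold (Gk, Ept1, Cdipt and Rxra) lie between -0.58 and -0.30.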

How the data were processed

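Liver RNA of 6 A1cf -/- (KO) and 6 wild-type (WT) mice was sequenced as TruSeq libraries on a HiSeq instrument, per the labels' protocols. The authors deposited raw counts, which are read-pair fragments over exons summed by gene name; the file headers give featureCounts 1.5.0-p2 and the GENCODE M8 annotation. The command sets no strand option, so reads of genes that overlap on opposite strands cannot be told apart. STAR, DESeq2 and the mm10 build are named, without settings, per the submitters' processing notes. The deposited table also gives an exonic length per gene, which was used for levels per kilobase.

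The software was edgeR 4.0.16 and limma 3.58.1 under R 4.3.3. After a filterByExpr filter with a minimum count of 10 and TMM scaling, a robust quasi-likelihood fit with a genotype term tested KO over WT. Benjamini-Hochberg adjustment covered all 13706 genes kept, and the threshold was 0.05. A further model added the library number range. Log2 CPM used a prior count of 2, and the standard error is the log2 fold change over the square root of F. A count of 0 allows up to 3 counts, or 0.059 to 0.131 CPM, which covers counting error only. The scripts were tested on simulated data with known changes.

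The 9 genes, the pathway and marker lists and the tests were chosen with earlier results of these data known. The text names the 9 genes and A1cf whatever their result, the 2 neighbours with counts on each side of Mogat2, the 5 genes most like Mogat2 and like the most variable other gene, and from each pathway list up to 4 genes past the threshold or else the 2 with the smallest p. Marker genes are named for their levels. Coding windows were read from GENCODE transcripts of the same genome build, and promoters from RefSeq. Other settings were RLE size factors, library totals only, other filters on low counts, DESeq2 1.42.0, limma-voom, the number range as a covariate, and fits without some libraries. The settings for the number range contrast were added after the data were seen.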

Additional observations from a re-analysis of the deposited data

Results flagged for a closer look

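Among the 9 genes and A1cf, 1 of 20 groups of 6 libraries held a library far from the other 5. It was Dgat1 in KO, where KO 602 had 22.9 CPM while the other KO libraries lay between 29.6 and 32.7 CPM. Chance flags about 1 in 20 groups, so a single such group among 20 is what chance gives. WT 590 had the same level of 22.9 CPM and was not far enough from the other WT libraries to be marked.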

How the results depend on the processing

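KO against WT, as reported, passed 523 genes (236 higher, 287 lower), 2 of the 9 genes and 4 other pathway genes. Scaled by library totals only, 266 were higher and 139 lower in KO, with 1 of the 9, 2 pathway genes, and 1 of the 9 in the number range contrast. With no filter on low counts, 1 of the 9 and 2 pathway genes passed. DESeq2 passed 1172 genes (548 higher, 624 lower) and 11 pathway genes. With only libraries 573 to 602 (5 KO, 3 WT), 57 passed (25 higher, 32 lower), with 0 of the 9 and 0 pathway genes. Without the deepest library of each genotype (KO 588, WT 573), 206 passed (95 higher, 111 lower), with 1 of the 9 and 0 pathway genes. Leaving out each library in turn gave 266 to 638 genes (116 to 313 higher, 150 to 325 lower), 1 to 2 of the 9 and 1 to 6 pathway genes. Fits without KO 574, KO 588, KO 591, WT 573, WT 777 or WT 778 passed 315, 319, 324, 312, 266 and 294 genes. The causes were not tested, although the last 3 settings hold fewer libraries.

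Mogat2 and Agpat2 were chosen on this contrast, so their values in refits of the same libraries are no independent support. Mogat2 lay at 2.95 to 3.99, short of the threshold with libraries 573 to 602 alone. Agpat2 lay at -0.32 to -0.23, past the threshold in 2 of 12 fits that left out a library and in 5 of 9 other settings. Genes that changed direction had not passed: Dgat1 (0.04 with libraries 573 to 602), Dgat2 (to -0.02), Lpin1 (to 0.07) and Lpin2 (to -0.12 without KO 780). The 5 pairs in the WT order cannot change with scaling or with fewer libraries, and no more is read from them. No paired analysis was possible because the groups share no library number. Depth limits Mogat2 and Mogat1 most, with as few as 2 and 14 counts in a library.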

Other observations

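In the number range contrast, 2 of the 90 other pathway genes passed (edgeR quasi-likelihood test, Benjamini-Hochberg adjusted), while 4.36% of all tested genes did. The 2 genes are given as values, close to the threshold. Srebf1, the SREBP-1 gene that drives fatty acid synthesis, was lower in libraries 776 to 780 than in 573 to 602 (log2 fold change -1.01, adjusted p = 0.0496). Ppargc1a, which encodes the PGC-1 alpha coactivator, was higher (log2 fold change 0.66, adjusted p = 0.0488). Lpin1 and Lpin2 were also higher there without passing, and what the number ranges stand for is not given in the labels.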
